A study of Mus musculus with 16 samples.

Results

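The small leucine-rich proteoglycans Dcn, Bgn, Aspn, Lum, Fmod, Prelp and Ogn are described here with the fibrotic matrix genes Fbln1, Fn1 and Postn. They were counted in single cells of the injured and uninjured mouse spinal cord. The genes were chosen by name, so they are 10 of the 55487 genes in the deposited count matrix, and all 10 were counted at least once. Small leucine-rich proteoglycans are secreted proteins with a core of leucine-rich repeats, most of which bind collagen fibrils and set how the fibrils assemble. Fibronectin, periostin and fibulins are other matrix proteins that cells lay down and grip through integrins or other receptors during wound repair. In the spinal cord, fibroblasts of the meninges and of blood vessel walls are known for such matrix, and the scar in the core of a lesion is rich in it.

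Each library holds the cells of 1 mouse, dissociated from spinal cord, which in injured mice was taken around a dorsal column lesion. The values are unique molecular identifiers (UMIs), which count captured RNA molecules. The wild-type group (WT) has the genotype Ryk+/+,GFAPcreERT2, and the conditional knockout group (cKO) has the genotype Rykfl/fl,GFAPcreERT2, so both carry the Cre transgene. All mice were 8 to 10 weeks old, and they were taken without injury (called uninjured here, and sham in the labels) or after a spinal cord injury that was 1, 7 or 14 days old (1 d, 7 d and 14 d), with 2 mice per genotype and time. By the study's methods the lesion was a cut of the cervical dorsal columns, and daily tamoxifen around the operation switched on the Cre. That Cre is driven by a GFAP promoter, so the deletion is meant for astrocytes and not for the fibroblasts, pericytes and endothelium that carry most of these RNAs.

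Some libraries stand apart from their labels or from the others. The names of the cells give another condition than the sample title in 6 libraries, each of them replicate 2. In the WT titles, the cells are called cKO uninjured under uninjured, WT 14 d under 1 d, WT 1 d under 7 d, and cKO 14 d under 14 d. In the cKO titles, they are called WT 7 d under uninjured and cKO 7 d under 14 d. Conditions follow the sample titles here, and tests were repeated with the names of the cells and without these libraries. Of the 18203 cells, 1 is the whole library of WT 1 d replicate 2, with 266 UMIs and 0 UMIs of all 10 genes, so that mouse is left out and 15 mice are used, 5 of them among the 6. WT at 1 d therefore rests on 1 mouse, whose own spread cannot be measured. The 15 libraries hold 208 to 1845 cells and 536263 to 9008729 UMIs each. Replicate 1 of WT 1 d, cKO 1 d, WT 7 d and cKO 7 d is shallow, with a median of 414, 421, 414 and 548 UMIs per cell, and the others reach up to 3637. The libraries share 166 cell barcodes, each seen in more than 1 of them.

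Ryk, the deleted gene, was looked at first in astrocytes (Clusters 2, 5 and 7) as a check of the labels. Levels are given as UMIs of a gene per 1000 × 1000 UMIs of the same cells in the same mouse (CPM). Ryk stood at 123 and 54.0 CPM in WT uninjured, 101 in WT 1 d, 157 and 116 in WT 7 d, and 105 and 108 in WT 14 d. It stood at 66.1 and 85.1 CPM in cKO uninjured, 23.0 (1 UMI) and 69.0 in cKO 1 d, 90.1 and 119 in cKO 7 d, and 121 and 123 in cKO 14 d. The genotypes overlap at 7 d and in uninjured mice, cKO 1 d lies below the WT 1 d mouse, and at 14 d both cKO mice lie above both WT mice. The log2 difference of cKO from WT over the injured time points was −0.20 (standard error (SE) 0.37, edgeR adjusted p 1.00), and by DESeq2 it was −0.26. Reads of a 3′ library can lie outside the deleted stretch, so these counts do not show whether the protein is lost.

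The names of the clusters were checked against marker lists that leave the 10 genes out. All 10 fibroblast markers lie more than 2-fold above the mean of the other clusters in Cluster 14 Fibroblasts, with a summed level of 26716 CPM, and 2 of the 10 do in Cluster 9 Pericytes (1302 CPM). In the oligodendrocytes of Clusters 8 and 4 the list sums to 6133 and 1196 CPM with 1 gene above 2-fold in each, and Apod alone stands at 6052 CPM in Cluster 8. All 10 pericyte and smooth muscle markers do so in Cluster 9, at 17568 CPM, beside 7122 CPM of endothelial markers. Cluster 13, labelled Unk, has all 4 ependymal markers, led by Tmem212 at 1047 CPM. Cluster 15 is labelled schwan cells in the deposited cell table, and that name is used here as given. The fibroblasts are 267 of the 18203 cells, and 72 of these come from cKO 7 d replicate 2, with 52.1% of the fibroblast UMIs. Shares of the 10 genes that pool fibroblasts lean on that mouse, except for Fmod, and they are also given without it. Levels and shares of other genes in the pooled fibroblasts are not given without it.

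Class I of the family, to which Dcn, Bgn and Aspn belong, separated fibroblasts from pericytes in part. Dcn was almost confined to fibroblasts. Bgn was highest in fibroblasts and next highest in pericytes. Aspn was as high in pericytes as in fibroblasts, and it varied more among fibroblast samples than among pericyte samples.

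Dcn encodes decorin, which binds collagen fibrils and also transforming growth factor beta. Of its 12105 UMIs 93.8% were in fibroblasts, with a median over 9 mice of 4573 CPM (580 to 17260). Pericytes came next with a median of 36.1 CPM (0 to 214, 15 mice), followed by Cluster 12 Immuno at 24.5 CPM (0 to 977, 10 mice) and Cluster 17 RBC at 22.3 CPM (0 to 918, 4 mice). Fibroblasts lie above every pericyte sample, the other 3 clusters overlap each other, and the highest Cluster 12 and Cluster 17 values reach into the fibroblast range. A Dcn UMI was found in 74.5% of fibroblasts and in 2.29% of oligodendrocytes (Clusters 4 and 8), a type that should lack the gene, with a median of 2498 and 1066 UMIs per cell. In pericytes the share was 6.34%, at a median of 1420 UMIs per cell. Without cKO 7 d replicate 2 fibroblasts hold 84.2% of the Dcn UMIs, and 68.7% of them have one.

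Bgn encodes biglycan, the closest relative of decorin. Its median was 712 CPM in fibroblasts (253 to 1696, 9 mice) and 227 CPM in pericytes (129 to 416, 15 mice), and the next cluster was Cluster 15 at 17.0 CPM (0 to 30.0, 5 mice). The ranges of fibroblasts and pericytes overlap, and both lie above Cluster 15. Fibroblasts hold 67.9% and pericytes 22.7% of the 3011 UMIs, and without cKO 7 d replicate 2 the shares are 45.1% and 39.8%. A Bgn UMI was found in 61.8% of fibroblasts (55.4% without that mouse), 36.5% of pericytes and 0.564% of oligodendrocytes.

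Aspn encodes asporin, which binds collagen and carries a stretch of aspartate residues. Its median was 227 CPM in pericytes (102 to 429, 15 mice) and 216 CPM in fibroblasts (0 to 1266, 9 mice), and 4.08 CPM in Cluster 3 Neuronal (0 to 42.8, 15 mice). The order of the first pair is within the spread, and every pericyte sample lies above every neuron sample. An Aspn UMI was found in 32.7% of pericytes, 20.6% of fibroblasts (13.8% without cKO 7 d replicate 2) and 0.451% of oligodendrocytes. Of the 1380 UMIs in fibroblasts 683 come from 1 cell of cKO 7 d replicate 2, and without that mouse the pooled level falls from 722 to 131 CPM and the fibroblasts' part of all Aspn UMIs from 61.9% to 16.0%, where pericytes then hold 69.9%.

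Class II holds Lum, Fmod and Prelp, and class III holds Ogn. Lum was found mostly in fibroblasts. Fmod was scarce in all clusters. Prelp and Ogn each had a second site, in Cluster 13 and in Cluster 15.

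Lum encodes lumican, which limits the width of collagen fibrils. Its median was 94.7 CPM in fibroblasts (0 to 918, 9 mice) and 2.49 CPM in Cluster 3 Neuronal (0 to 14.8, 15 mice), and it was 0 in the other 15 clusters. The fibroblasts of 8 of the 9 mice lie above every neuron sample, and those of cKO 1 d replicate 1 had no Lum UMI. In that mouse 7330 fibroblast UMIs were counted. Fibroblasts hold 89.4% of the 691 UMIs. A Lum UMI was found in 19.9% of fibroblasts and 0.602% of oligodendrocytes. Without cKO 7 d replicate 2 the pooled fibroblast level is 151 in place of 323 CPM, fibroblasts hold 71.5% of the Lum UMIs, and 15.9% of them have one.

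Fmod encodes fibromodulin, which shares a site on collagen with lumican. It was counted 251 times in all cells, and its median was 46.2 CPM in fibroblasts (0 to 139, 9 mice) and 4.64 CPM in pericytes (0 to 52.6, 15 mice). These ranges overlap. A Fmod UMI was found in 10.9% of fibroblasts (9.74% without cKO 7 d replicate 2), 1.91% of pericytes and 0.226% of oligodendrocytes. Of the 124 Fmod UMIs in fibroblasts 40 come from cKO 14 d replicate 1, and 1 cell holds 38 of the 124. Fmod had too few counts to be tested in fibroblasts, as had Postn.

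Prelp encodes a proteoglycan that anchors basement membranes to the collagen beneath. Its median was 268 CPM in Cluster 13, the cluster with ependymal markers (151 to 549, 10 mice), 243 CPM in fibroblasts (0 to 534, 9 mice) and 77.6 CPM in pericytes (0 to 143, 15 mice). Clusters 13 and 14 do not differ beyond their spread, and all Cluster 13 samples lie above all pericyte samples. A Prelp UMI was found in 47.2% of fibroblasts (36.9% without cKO 7 d replicate 2), 30.3% of Cluster 13 cells (median of 1707 UMIs per cell), 16.3% of pericytes and 0.526% of oligodendrocytes. Astrocytes of Clusters 5 and 7 had medians of 26.4 CPM (0 to 188) and 16.0 CPM (0 to 85.0).

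Ogn encodes osteoglycin, also called mimecan, the only class III gene among the 10. It stood at 974 CPM in Cluster 15 of WT 7 d replicate 1, 3107 in WT 14 d replicate 1, 3748 in cKO 1 d replicate 2, 1617 in cKO 7 d replicate 2 and 2418 in cKO 14 d replicate 1, the 5 mice with enough of these cells. All 5 lie above the median of fibroblasts, which is 243 CPM (0 to 1066, 9 mice), and the lowest of them lies within the fibroblast range. Pericytes follow with 120 CPM (0 to 295, 15 mice). An Ogn UMI was found in 65.7% of Cluster 15 cells (median of 2571 UMIs per cell), 50.9% of fibroblasts (56.7% and 40.0% without cKO 7 d replicate 2), 18.2% of pericytes and 0.902% of oligodendrocytes. Of the 3095 Ogn UMIs 44.3% were in fibroblasts, 35.6% in Cluster 15 and 13.5% in pericytes. Without cKO 7 d replicate 2 fibroblasts come last of these 3, with 24.9% in fibroblasts, 34.0% in Cluster 15 and 27.8% in pericytes. The other 6 proteoglycans had medians of 0 to 17.0 CPM in Cluster 15.

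**Figure D1:**
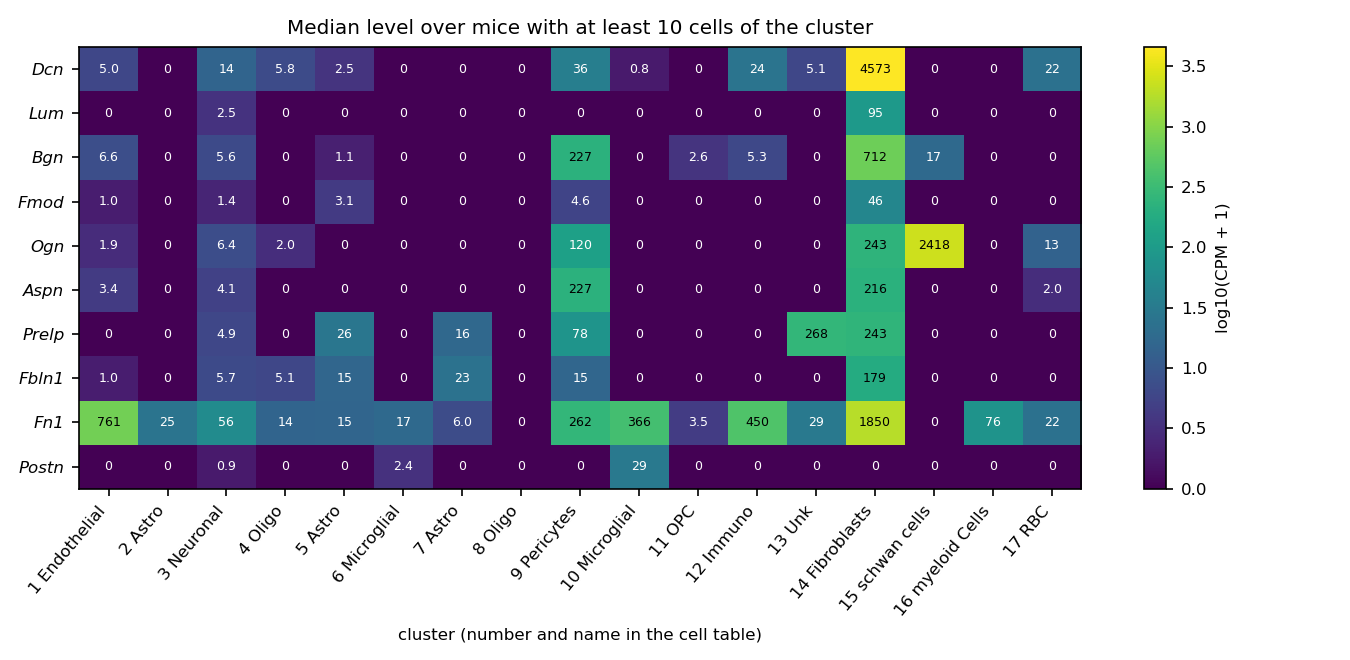
Median level of each gene in each of the 17 clusters, over the mice with at least 10 cells of the cluster. Numbers in the fields are CPM, and the colour is log10 of CPM plus 1. Names and numbers of the clusters are those of the deposited cell table.

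The other fibrotic genes were each counted outside fibroblasts as well. Fbln1 was highest in fibroblasts and was also counted in astrocytes. Fn1 had more of its UMIs in endothelium than in fibroblasts. Postn was most often counted in the microglia of Cluster 10.

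Fbln1 encodes fibulin-1, a glycoprotein that binds fibronectin and basement membranes. Its median was 179 CPM in fibroblasts (0 to 316, 9 mice), 23.3 CPM in Cluster 7 Astro (0 to 44.7, 15 mice), 15.0 CPM in Cluster 5 Astro (0 to 178, 14 mice) and 14.9 CPM in pericytes (0 to 32.2, 15 mice). Clusters 7, 5 and 9 do not differ beyond their spread, and the fibroblasts of 8 of 9 mice lie above all samples of Clusters 7 and 9. A Fbln1 UMI was found in 33.7% of fibroblasts (24.6% without cKO 7 d replicate 2), 9.88% of Cluster 7 cells (median of 2882 UMIs per cell) and 1.39% of oligodendrocytes. Fibroblasts hold 56.6% and Cluster 7 holds 14.3% of the 859 UMIs, and without that mouse the shares are 37.7% and 18.6%.

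Fn1 encodes fibronectin, which integrins bind and around which cells order other matrix. Its median was 1850 CPM in fibroblasts (184 to 4804, 9 mice), 761 CPM in Cluster 1 Endothelial (563 to 1092, 15 mice), 450 CPM in Cluster 12 (25.5 to 4881, 10 mice), 366 CPM in Cluster 10 Microglial (0 to 1250, 14 mice) and 262 CPM in pericytes (86.6 to 595, 15 mice). The endothelial range lies inside the fibroblast range, and neighbours in this order overlap. Endothelial cells, which outnumber fibroblasts with 4201 cells, hold 47.0% of the 18006 UMIs, and fibroblasts hold 27.5%. Without cKO 7 d replicate 2 these shares are 55.8% and 14.7%. A Fn1 UMI was found in 61.0% of fibroblasts (52.3% without that mouse), 50.7% of endothelial cells (median of 890 UMIs per cell), 22.6% of Cluster 10 cells (1119 UMIs), 4.64% of Cluster 6 cells (780.5 UMIs) and 3.98% of oligodendrocytes. The share in Cluster 6, over all mice, is thus close to that of oligodendrocytes.

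Postn encodes periostin, which binds integrins and takes part in collagen crosslinking. It was counted 447 times, and Cluster 10 Microglial holds 51.2% of these UMIs and fibroblasts 26.2%. Of the 117 UMIs in fibroblasts 78 come from 1 cell of cKO 7 d replicate 2, and without that mouse the pooled fibroblast level is 5.46 in place of 61.2 CPM, with 1.67% of all Postn UMIs. The median was 29.1 CPM in Cluster 10 (0 to 100, 14 mice), 2.38 CPM in Cluster 6 (0 to 15.8, 14 mice) and 0 in fibroblasts (0 to 113, 9 mice). These 3 ranges overlap at their low ends. A Postn UMI was found in 5.66% of Cluster 10 cells, 4.49% of fibroblasts (1.54% without that mouse) and 0.376% of oligodendrocytes.

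Cells with fewer UMIs show fewer genes, so the number of these genes per cell was also counted after each cell had been thinned to 1000 UMIs. The 181 fibroblasts deep enough had a median of 2 of the 10 genes each, the 508 pericytes 1 and the 1420 oligodendrocytes 0. Among these cells 5 or more of the genes were met in 26 fibroblasts, 0 pericytes and 0 oligodendrocytes. Of the 18 thinned fibroblasts with a Lum UMI 17 also had a Dcn UMI, and of the 71 with a Bgn UMI 48 did. Dcn was the more often counted gene, with 97 of the 181 cells.

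Across 199 units of 1 mouse and 1 cluster, the levels of some of the genes ran alike. Units share libraries and clusters, so the correlations describe the pattern over cell types more than over mice. Among the 10 genes the highest values were 0.859 for Bgn and Aspn, 0.830 for Dcn and Lum and 0.789 for Dcn and Bgn. Out of 14613 genes, the most alike to Dcn was Col3a1 (r 0.902) before Islr and Col6a2, to Bgn Foxd1 (0.944) before Tnxb and Pcolce, and to Aspn C1qtnf7 (0.903) before Cd248 and Bmp5. For Lum it was Sfrp4 (0.945) before Itgbl1 and Shisa3, for Fmod Foxc2 (0.668) before Slc13a4 and Fbln1, for Prelp Rarres2 (0.788) before 1500015O10Rik and Zbtb7c, and for Ogn Mfap5 (0.813) before Lamb1 and Adamts5. Fbln1 ran most like Slc26a7 (0.794) before Foxc2 and Itih2, Fn1 like Fxyd5 (0.860) before Ecm1 and Ifitm2, and Postn like Igf1 (0.699) before Mmp12 and St14. Of the UMIs of these nearest genes, 95.6% lie in fibroblasts for Col3a1, 47.3% in Cluster 13 for Rarres2, 46.7% in endothelium for Fxyd5 and 63.9% in Cluster 10 for Igf1.

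How the fibroblasts of single mice differ was followed next, in the 9 mice with at least 10 of them. No gene of the 10 passed the test, either between genotypes or between late and early times. Several genes varied by more than 10-fold between mice. WT has 1 mouse at each time, so only the pairs of cKO mice at 1 d and 14 d tell how much mice of 1 group vary.

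Dcn stood at 4409 CPM in WT uninjured replicate 2, 17260 in WT 1 d replicate 1, 10267 in WT 7 d replicate 1, 795 in WT 14 d replicate 1, 3956 and 580 in cKO 1 d, 8104 in cKO 7 d replicate 2, and 4573 and 4729 in cKO 14 d. It was highest in the WT mouse at 1 d and lowest in a cKO mouse at 1 d, and the genotypes overlap. Bgn, in the same order of mice, stood at 1696, 1285, 1526, 618, 273 and 253, 1433, and 587 and 712 CPM. Bgn was highest in the uninjured mouse, high at 7 d in both genotypes and low in both cKO mice at 1 d. The value of cKO 1 d replicate 1 rests on few counts, in 7330 fibroblast UMIs. The 10 fibroblast markers, in the same order of mice, summed to 27092, 28461, 31864, 20630, 13097 and 15086, 33919, and 22875 and 13330 CPM. These sums are highest in the 7 d mice, unlike Dcn and Bgn. They are low in both cKO 1 d mice and in cKO 14 d replicate 2. Pericyte and smooth muscle markers were highest in cKO 1 d replicate 1, at 2729 CPM beside 84.8 to 1341 in the others. Astrocyte markers were highest in cKO 14 d replicate 2, at 2065 CPM beside 394 to 1101 in the others. Neuron markers were highest in that mouse as well, at 1605 CPM beside 93.8 to 848. Whether the makeup of the fibroblast cluster has a part in these levels was not tested.

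Aspn stood at 382 CPM in the uninjured mouse, 551, 601 and 13.1 in WT at 1 d, 7 d and 14 d, 0 and 0 in cKO 1 d, 1266 in cKO 7 d, and 48.6 and 216 in cKO 14 d. Its 7 d values are the highest, the cKO one resting on the single cell named above. For the cKO 1 d mice, a floor of 3 counts in each library would be over 40 CPM, so low levels could not be seen there. The floor is far higher in replicate 1, where 1 UMI alone is 136 CPM, so its 0 says little. Ogn stood at 848 CPM in the uninjured mouse, 184, 462 and 243 in WT at 1 d, 7 d and 14 d, 0 and 193 in cKO 1 d, 1066 in cKO 7 d, and 202 and 618 in cKO 14 d. The lowest Ogn values are those at 1 d in both genotypes, but this order rests on few counts. The WT 1 d value is 1 UMI, and the 0 in cKO 1 d replicate 1 lies in 7330 UMIs. The other cKO 1 d value, 193 CPM, is close to the 202 CPM of cKO 14 d.

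Fn1 stood at 1781 CPM in the uninjured mouse, 184, 1850 and 4804 in WT at 1 d, 7 d and 14 d, 409 and 2499 in cKO 1 d, 3064 in cKO 7 d, and 1946 and 798 in cKO 14 d. Of the 3048 Fn1 UMIs behind the cKO 7 d value 1390 come from 1 cell. Replicate 1 of both genotypes was low at 1 d, and the pair of cKO mice at 1 d is wide apart, but the low values rest on few counts. The WT 1 d value is 1 UMI in 5446. In cKO 1 d replicate 1, Fbln1, Fn1 and Postn together have 5 UMIs in 7330. Fbln1 stood at 84.8 CPM in the uninjured mouse, 0, 92.5 and 164 in WT at 1 d, 7 d and 14 d, 273 and 179 in cKO 1 d, 316 in cKO 7 d, and 212 and 239 in cKO 14 d. Every cKO value lies above every WT value for this gene, but these values rest on few counts. In WT 1 d, where 0 were counted, 3 UMIs would be 551 CPM, above every cKO value. The values of WT uninjured and cKO 1 d replicate 1 are 2 UMIs each. The 4 others ranged from 0 to 918 CPM (Lum), 0 to 139 (Fmod), 0 to 534 (Prelp) and 0 to 113 (Postn).

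**Figure D2:**
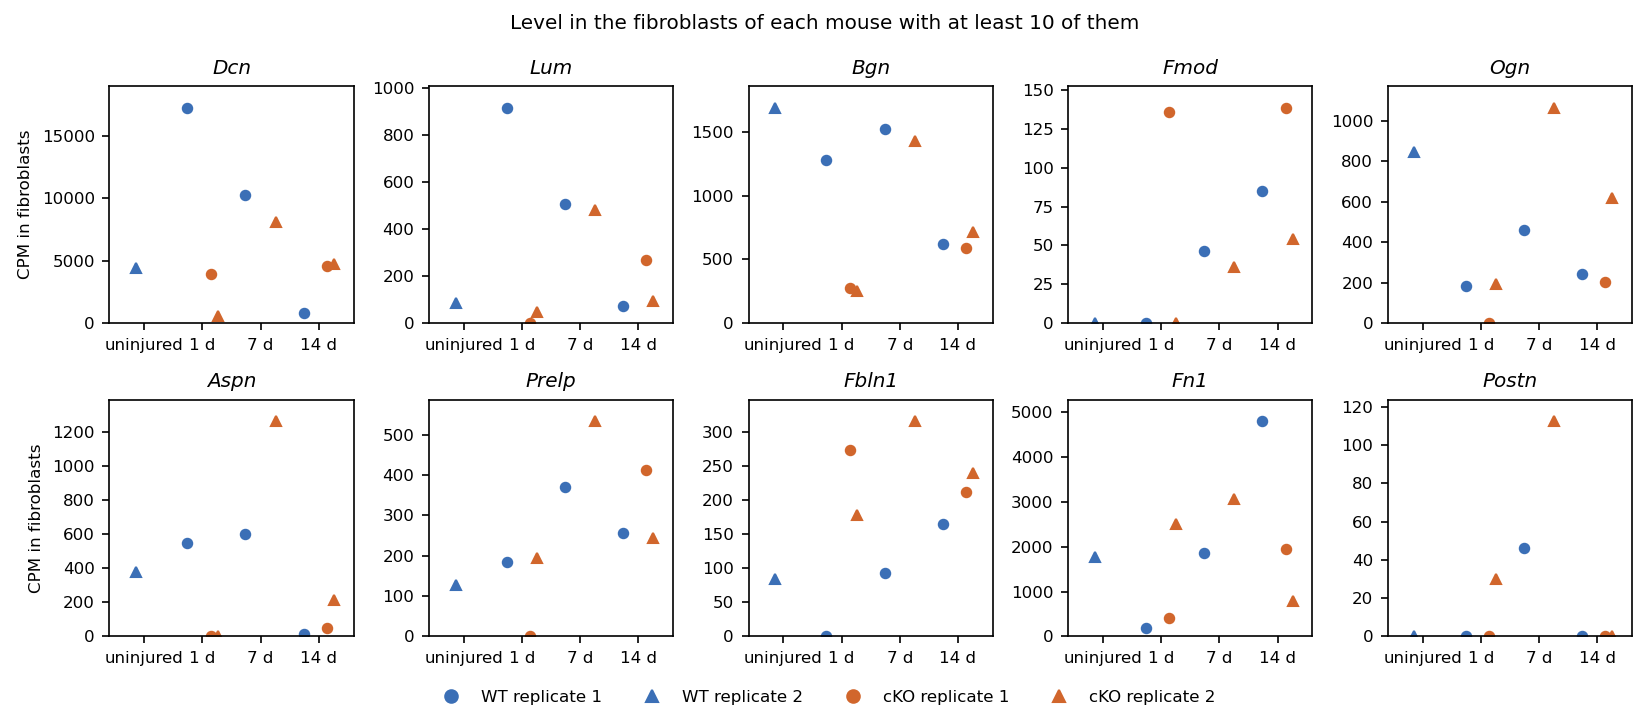
Level of the 10 genes in the fibroblasts of each mouse that has at least 10 of them, by time after injury. Colours are genotypes and shapes are replicate numbers, and the scale of each panel is its own.

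Between genotypes, at the injured time points, edgeR called 0 of the 8 genes tested in fibroblasts, where 0% of 4113 genes were called (adjusted p under 0.05), and DESeq2 called 0, with 0 genes in all. At an unadjusted p under 0.05 edgeR has 304 of all genes and 1 of the 8, Fbln1, with a log2 difference of 3.48 (SE 1.39, adjusted p 0.585). DESeq2 has 46 of all genes and 0 of the 8. The median difference was 0.38 over the 8 genes and 0.95 over all genes tested. With the replicate number in the fit, as a replicate block, the Fbln1 difference is 3.29 (adjusted p 1.00).

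Between times, 7 d and 14 d against 1 d, edgeR called 0 of the 8 genes in fibroblasts, beside 0.0243% of 4113 genes, and DESeq2 called 0, beside 1 gene in all. At an unadjusted p under 0.05 edgeR has 5 of the 8 beside 344 of all genes, and DESeq2 has 1 beside 65. For 4 of the 5 the log2 differences are 1.55 for Bgn (SE 0.68, adjusted p 0.572), 2.22 for Ogn (SE 0.83, 0.510), 1.83 for Prelp (SE 0.82, 0.575) and 2.93 for Fn1 (SE 0.99, 0.434). For Aspn, which has an adjusted p of 0.529, the difference with the replicate block is 4.17 (adjusted p 1.00). The median over all genes tested is 0.73 in this comparison and that of the 8 genes 2.02, and the genes passed a filter on low counts. The fibroblasts at 1 d come from 3 mice with 12, 11 and 20 cells and 5446, 7330 and 67216 UMIs. Their median depth is 438, 681 and 1416 UMIs per cell, and that of the 7 d and 14 d mice is 564 in WT 7 d and 2542 to 11017 in the others. Without the libraries whose cell names give another condition, WT uninjured replicate 2 and cKO 14 d replicate 2 among these mice, 0 of the genes are called in either fibroblast comparison. Without WT 1 d replicate 1, Aspn passes the threshold, and then both mice left at 1 d have 0 Aspn UMIs.

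The single gene called in fibroblasts was Spp1, which encodes osteopontin and was on the list of matricellular proteins. It stood at 3122 CPM in WT 1 d replicate 1 and at 2592 and 491 CPM in cKO 1 d. In the other mice it stood at 0 CPM in WT uninjured, 46.2 in WT 7 d, 19.7 in WT 14 d, 18.1 in cKO 7 d, and 108 and 94.7 in cKO 14 d. All 3 mice at 1 d lie above all the others. Spp1 fell by 4.76 on the log2 scale (SE 0.59, adjusted p 2.09e-12), and with the animal number series as a term its adjusted p is 0.113. Over the alternatives run its log2 difference ran from −5.36 to −4.07. The 8 microglia and macrophage markers summed in these fibroblasts to 0, 955 and 223 CPM at 1 d and 65.7 to 647 CPM at 7 d and 14 d. The mouse with the highest Spp1 level has 0 UMIs of these markers in 5446 fibroblast UMIs. There 3 UMIs would be 551 CPM, so this zero does not measure an absence. The part of these markers in the result was not tested.

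Pericytes were compared in all 15 mice. Among the 6 genes with enough counts there, none passed the test between injured and uninjured mice or between genotypes. Aspn and Bgn were counted in the pericytes of every mouse, from 102 to 429 CPM and from 129 to 416 CPM.

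Bgn in pericytes stood at 181 and 273 CPM in WT uninjured, 129 and 132 in cKO uninjured, and ranged from 194 to 416 over the 11 injured mice. Aspn stood at 165 and 102 CPM in WT uninjured, 193 and 156 in cKO uninjured, and from 129 to 429 in injured mice. For Bgn 3 of the 4 uninjured values lie below the injured range and 1 lies inside it, and for Aspn 1 lies below and 3 lie inside. edgeR called 0 of the 6 genes after injury (0% of 6876 genes called), 0 of the 6 have an unadjusted p under 0.05, beside 278 of all genes, and DESeq2 called 0. The log2 differences were 0.53 for Bgn (SE 0.33, adjusted p 0.994) and 0.55 for Aspn (SE 0.31, 0.994), beside a median of −0.05 over all genes tested. Between genotypes edgeR called 0 of the 6 (0% of 6876 genes) and DESeq2 called 0, and 1 had an unadjusted p under 0.05, beside 244 of all genes. That gene was Dcn, with a log2 difference of 3.11 (SE 1.32, adjusted p 1.00) on 148 UMIs in all, and at 6.34% of cells, beside 2.29% of the shallower oligodendrocytes.

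Fibroblasts made up 0.204%, 0.481%, 0.485% and 0.723% of the cells in the 4 uninjured mice and 0.357% to 4.73% in the 11 injured mice, with a median of 1.17%. Most injured mice lie above all uninjured mice, and the ranges overlap. The means differ by 1.26 percentage points (exact two-sided permutation over mice, p 0.0813). Between genotypes within time points, uninjured mice included, the difference is 0.160 points (exact permutation p 0.779). Its sign reverses under 4 of 17 alternatives, with values from −0.382 to 1.19. Pericytes made up a mean of 4.37% in uninjured and 5.00% in injured mice, a difference of 0.623 points (exact permutation p 0.522). Within time points, again with uninjured mice included, cKO lay −1.26 points from WT (exact permutation p 0.211).

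Over all cells of a mouse, the level of a gene follows both the share of its source cells and the RNA in each, and these cannot be told apart in such a sum. All 10 genes were tested there. None passed at any time. At 7 d and 14 d all 10 estimates lie above 0, with medians of 1.20 and 0.34, and at 1 d 7 of them do, with a median of 0.17. Over all genes tested the median is −0.08 at 1 d and 0.01 at 14 d. With no filter on low counts 5 of the 10 are called at 7 d, beside 711 of 41193 genes, and 1 at 14 d, beside 613.

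At 1 d edgeR called 0 of the 10 genes, beside 0.0266% of 18814 genes, and DESeq2 called 0, beside 56 genes in all. At an unadjusted p under 0.05 each tool has 1, in edgeR Fn1, beside 1228 of all genes by edgeR and 1141 by DESeq2. It stood at 266 and 200 CPM in WT uninjured, 161 and 238 in cKO uninjured, 694 in WT 1 d, and 700 and 390 in cKO 1 d. The 3 mice at 1 d lie above the 4 uninjured mice. The log2 difference was 1.24 (SE 0.40, adjusted p 0.594). With the replicate block it was 1.23 (adjusted p 0.651).

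At 7 d edgeR called 0 of the 10 genes (0% of 18814 genes), and DESeq2 called 0, beside 189 genes in all. At an unadjusted p under 0.05 edgeR has 1764 of all genes and DESeq2 1667. Of the 10 genes each has 3, in edgeR Aspn with a log2 difference of 1.88 (SE 0.58, adjusted p 0.292), Prelp with 1.08 (SE 0.44, 0.480) and Postn with 1.82 (SE 0.81, 0.516). Aspn stood at 16.3 and 9.92 CPM in WT uninjured, 10.3 and 12.7 in cKO uninjured, 43.1 and 27.7 in WT 7 d, and 12.1 and 164 in cKO 7 d. Replicate 2 of cKO 7 d is the highest and replicate 1 of cKO 7 d lies among the uninjured mice. Dcn stood at 5.53 and 59.0 CPM in WT uninjured, 46.5 and 102 in cKO uninjured, 373 and 26.0 in WT 7 d, and 17.8 and 909 in cKO 7 d. In each genotype 1 mouse at 7 d is high and the other lies among the uninjured mice, and the 2 high ones are those with 2.91% and 4.73% fibroblasts, against 0.357% and 0.392%. The median log2 difference of the 10 genes is 1.20, beside 0.00 over all genes tested.

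At 14 d edgeR called 0 of the 10 genes (0% of 18814 genes), and DESeq2 called 0, beside 162 genes in all. At an unadjusted p under 0.05 edgeR has 1853 of all genes and DESeq2 1599. Of the 10 genes each has 2, in edgeR Prelp with a log2 difference of 1.00 (SE 0.43, adjusted p 0.462) and Postn with 2.25 (SE 0.75, 0.318). Postn stood at 0.325 and 3.31 CPM in WT uninjured, 0 and 2.04 in cKO uninjured, 5.53 and 11.7 in WT 14 d, and 9.91 and 9.36 in cKO 14 d. All 4 mice at 14 d lie above the 4 uninjured mice. The uninjured libraries hold 12 Postn UMIs between them.

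Between genotypes over the injured time points edgeR called 0 of the 10 (0% of 18814 genes), and DESeq2 called 0, beside 1 gene in all. At an unadjusted p under 0.05 edgeR has 477 of all genes and DESeq2 338. Of the 10 genes each has 1, in edgeR Fbln1, with a log2 difference of 1.31 (SE 0.53, adjusted p 1.00). It stood at 3.73 CPM in WT 1 d, 7.70 and 6.26 in WT 7 d, 15.0 and 6.71 in WT 14 d, 3.00 and 13.9 in cKO 1 d, 10.5 and 44.7 in cKO 7 d, and 13.6 and 12.7 in cKO 14 d. At 7 d both cKO mice lie above both WT mice, and at 1 d and 14 d the genotypes overlap. The median log2 difference of the 10 genes is 0.64, beside 0.08 over all genes tested.

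Endothelial cells and astrocytes had enough counts for 3 and 4 of the 10 genes. In endothelium Fn1 stood at 684, 563, 722 and 697 CPM in uninjured mice and at 717 to 1092 CPM in injured mice. All injured mice lie above 3 of the 4 uninjured mice, and the highest values are those at 1 d. After injury edgeR called 0 of the 3 (0% of 10985 genes, 0 at an unadjusted p under 0.05 beside 783 of all genes, 0 by DESeq2), with a log2 difference for Fn1 of 0.15 (SE 0.19, adjusted p 0.885). Between genotypes edgeR called 0 of the 3 (0% of 10985 genes, 0 by DESeq2), and 2, Dcn and Bgn, have an unadjusted p under 0.05, beside 311 of all genes, on 81 and 104 UMIs in 10942744. A UMI of them was found in 1.21% and 1.62% of endothelial cells, beside 2.29% and 0.564% of oligodendrocytes. In astrocytes, the cells for which the deletion is meant, edgeR called 0 of the 4 after injury (0% of 11769 genes, 0 by DESeq2) and 0 of the 4 between genotypes (0% of 11769 genes). In the latter DESeq2 called 0 of the 4 and 1 of all genes, and 0 of the 4 have an unadjusted p under 0.05, beside 265 of all genes. Prelp has an unadjusted p under 0.05 after injury, beside 698 of all genes, with a log2 difference of 1.26 (SE 0.57, adjusted p 0.834). It stood at 13.7 and 6.74 CPM in WT uninjured, 0 and 6.76 in cKO uninjured, and 13.8 to 69.0 CPM in injured mice, so that injured mice lie above the uninjured ones, by little at the edge.

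In microglia (Clusters 6 and 10) Fn1 was near 0 without injury and present in all injured mice. It was the 1 gene of the 10 that passed a test. The call holds under most alternatives, and it is lost under 3 of them. Clusters 6 and 10 contribute unequally, and Clusters 12 and 16 have Fn1 as well.

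Fn1 in microglia stood at 0 and 7.51 CPM in WT uninjured, the latter from 1 UMI, and at 0 in cKO uninjured replicate 2, the only other uninjured mouse with enough cells. In injured mice it stood at 541 CPM in WT 1 d, 337 and 124 in WT 7 d, 78.6 and 307 in WT 14 d, 554 and 257 in cKO 1 d, 267 and 177 in cKO 7 d, and 254 and 115 in cKO 14 d. All 11 injured mice lie above the 3 uninjured ones, in replicate 1 as in replicate 2, and the genotypes overlap. Fn1 rose by 8.36 on the log2 scale (SE 1.28, adjusted p 0.0118), and 6.72 by DESeq2 (adjusted p 8.69e-05). That makes 1 of the 2 genes tested, the other being Postn, beside 0.129% of 9268 genes. Pooled over mice, the level is 104 times the uninjured one, with a counting interval of 18.6 to 4110 that rests on the 1 uninjured UMI.

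The rise was 8.22 with the replicate block (adjusted p 0.00627). Without the libraries whose cell names give another condition it was 9.98. There the only uninjured mouse left is WT replicate 1, with 0 Fn1 UMIs, so this value is no measure of how far the rise holds. With the conditions of the cell names it was 7.29 (adjusted p 0.153), with cells thinned to 1000 UMIs 6.93 (0.244), and without WT 1 d replicate 1 8.99 (0.0648). Over all alternatives the adjusted p ran from 6.93e-16 to 0.244. Between genotypes edgeR called 0 of the 2 genes in microglia (0% of 9268 genes, 0 at an unadjusted p under 0.05 beside 346 of all genes, 0 by DESeq2), and the log2 difference for Fn1 was −0.14 (SE 0.37, adjusted p 1.00).

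Pooled over times, Cluster 10 carries most of it, with 1452 Fn1 UMIs in injured mice against 176 in Cluster 6. At 1 d the counts are 101 and 98 UMIs, at pooled levels of 403 and 295 CPM in Clusters 10 and 6. Over the 3 mice at 1 d Cluster 10 ran from 191 to 1250 CPM and Cluster 6 from 214 to 315 CPM. Of the 1452 UMIs 1009 come from 14 d, as do 2732801 of the 3701927 UMIs of all genes in Cluster 10 after injury. By mouse, the median Fn1 level in Cluster 10 was 978 CPM at 1 d, 531 at 7 d and 290 at 14 d. Cluster 10 held 9.98% and 20.5% of the microglial UMIs in WT uninjured, 27.1% in cKO uninjured replicate 2, and 30.8% to 60.6% in the 11 injured mice, with no overlap. By cells its part was 14.1%, 41.8% and 42.1% without injury and 25.5% to 62.5% after it, and these overlap. Fn1 stood in Cluster 10 at 0 CPM in the 3 uninjured mice and at 142 to 1250 CPM in the 11 injured mice. In Cluster 6 it stood at 0, 9.45 and 0 CPM without injury and 0 to 315 CPM after it, where the 3 mice at 1 d were highest with 315, 214 and 315 CPM. Of the 8 microglia and macrophage markers 1 passed the same test, P2ry12, a marker of resting microglia, at 1820, 1525 and 1795 CPM without injury and 424 to 1535 CPM after it. P2ry12 fell by 1.32 on the log2 scale (SE 0.25, adjusted p 0.0434), and its adjusted p is above 0.05 in 15 of 23 alternatives. Over these alternatives its log2 difference ran from −1.62 to −1.07. The markers summed to 28796, 22985 and 21656 CPM without injury and 18284 to 29468 CPM after it (median 19414), and these overlap. Whether the mix of microglial states has a part in the level of Fn1 was not tested.

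Spp1 was called in the same comparison. It stood at 3.88 and 0 CPM in WT uninjured, 115 in cKO uninjured, and 377 to 4691 CPM in injured mice, with no overlap. It rose by 7.07 (SE 1.06, adjusted p 0.0118). The adjusted p was 0.0954 under the conditions of the cell names and 0.0648 without WT 1 d replicate 1. Over all alternatives the rise ran from 6.07 to 11.2.

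In Cluster 12 Immuno, which was not tested and is described after its values were seen, Fn1 stood at 3660 CPM in WT 1 d and at 4881 and 4117 in cKO 1 d. It stood at 491 CPM in WT uninjured replicate 2, 181 in WT 7 d, 186 and 1150 in cKO 7 d, 159 in WT 14 d, and 25.5 and 409 in cKO 14 d, in the mice with at least 10 such cells. The 3 mice at 1 d lie above all the others. In Cluster 16 myeloid Cells, also not tested, Fn1 stood at 3275 CPM in WT 1 d and at 4875 and 75.6 in cKO 1 d, and at 31.3 in WT uninjured replicate 2 and 12.7 in cKO 7 d replicate 2. There the deeper of the cKO 1 d mice is far below the other mice at 1 d. Lyz2 is at its highest in Cluster 12, with 7202 CPM, and the summed level of the 10 fibroblast markers there is 207 CPM. Of the 8 microglia and macrophage markers only 2 lie more than 2-fold above the other clusters in Cluster 12. They sum to 9983 CPM there, beside 20956 CPM in Cluster 6 and 20245 CPM in Cluster 10.

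Postn in Cluster 10 stood at 0 CPM in all 3 uninjured mice, 40.7 in WT 1 d, 0 and 30.9 in cKO 1 d, 64.2 and 4.14 in WT 7 d, 23.1 and 27.2 in cKO 7 d, 35.5 and 100 in WT 14 d, and 57.2 and 95.6 in cKO 14 d. Replicate 2 of both genotypes at 14 d is highest, the values at 14 d and at 7 d overlap, and all 3 uninjured mice have no UMI. A floor of 3 counts would be 110 to 127 CPM in these 3 mice, above every injured value, so these zeros do not measure an absence. In Clusters 6 and 10 together the log2 difference after injury was 1.56 (SE 1.05, adjusted p 0.638). The 229 UMIs in Cluster 10 come from few cells, 13 in WT 14 d replicate 2 and 12 in cKO 14 d replicate 1 among them.

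**Figure D3:**
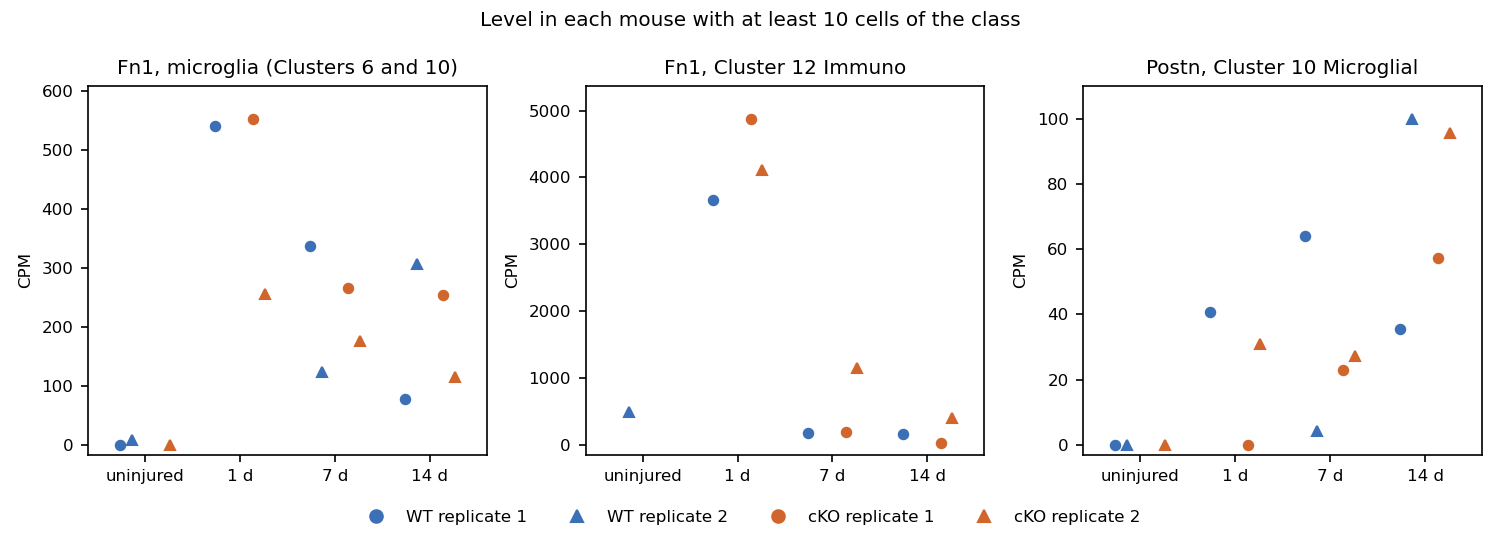
Fn1 in microglia and in Cluster 12, and Postn in Cluster 10, in each mouse with at least 10 cells of the class, by time after injury. Colours are genotypes and shapes are replicate numbers. Only microglia of both clusters together were tested.

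Other genes of the matrix were read from lists that were chosen by name. Of the 11 other small leucine-rich proteoglycans 7 were tested over all cells and 0 were called in any of the 14 comparisons by edgeR. The share called over all genes was 0% to 0.129%, here and for the collagens below. The most abundant were Ecm2, with 353 CPM in pericytes and 225 CPM in fibroblasts, and Chadl, with 95.6 CPM in Cluster 11 OPC. Kera, Epyc and Optc were counted 2, 21 and 38 times in all cells. Among the 10 fibrillar and beaded collagens, which the proteoglycans bind, 0 were called. Col3a1 and Col1a2 led with 5675 and 4750 CPM in fibroblasts pooled over mice, levels that lean on cKO 7 d replicate 2. That mouse holds 30233 fibroblast UMIs of these collagens, and the next highest, cKO 14 d replicate 1, holds 2379. In the fibroblasts of single mice these collagens summed to 17426 CPM in WT uninjured, 10466 in WT 1 d, 21829 in WT 7 d, 4364 in WT 14 d, 3684 and 2128 in cKO 1 d, 30389 in cKO 7 d, and 8267 and 6176 in cKO 14 d. They were highest in the 7 d mice and lowest in cKO 1 d. The fibroblast markers, which share Col1a1, Col1a2 and Col3a1 with this list, are also highest in the 7 d mice.

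In each list below the genes with enough counts were tested, all of them over the cells of a whole mouse and fewer in single cell types, beside calls of 0% to 0.129% of all genes, so a count of 0 does not set a list apart. For collagen crosslinking and processing 0 of 10 genes were called, with P4ha1 (165 CPM in fibroblasts) and Serpinh1 (569 CPM) the most abundant. For elastic and fibulin matrix 0 of 10 were called, and Fbn1 stood at 1180 CPM in fibroblasts and Ltbp1 at 194 CPM in pericytes. Of the 10 matricellular proteins Spp1 alone was called, once in fibroblasts and once in microglia, and Sparc and Sparcl1 had the most UMIs. Of the 8 fibronectin receptors 0 were called. Among them Itgb1 was highest in pericytes with 808 CPM and Itgb5 in Cluster 6 with 1190 CPM. Of the 10 genes of the transforming growth factor beta pathway 0 were called, and its receptors Tgfbr1 and Tgfbr2 were both highest in Cluster 6, at 1613 and 490 CPM.

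Several proteoglycan genes lie side by side in the genome. On chromosome 10, Dcn and Lum are 47.0 kb apart with 0 genes of the annotation between them, and Kera and Epyc follow. On chromosome 13, Aspn and Ogn are 40.5 kb apart with Omd between, and Ecm2 lies 11.7 kb before Aspn. On chromosome 1, Prelp and Fmod are 116 kb apart with 0 genes between, and Optc lies 2.31 kb from Prelp. Neighbours on a chromosome did not all share clusters. The correlation over the 199 units was 0.830 for Dcn and Lum, 0.534 for Aspn and Ogn, and 0.367 for Prelp and Fmod.

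**Figure D4:**
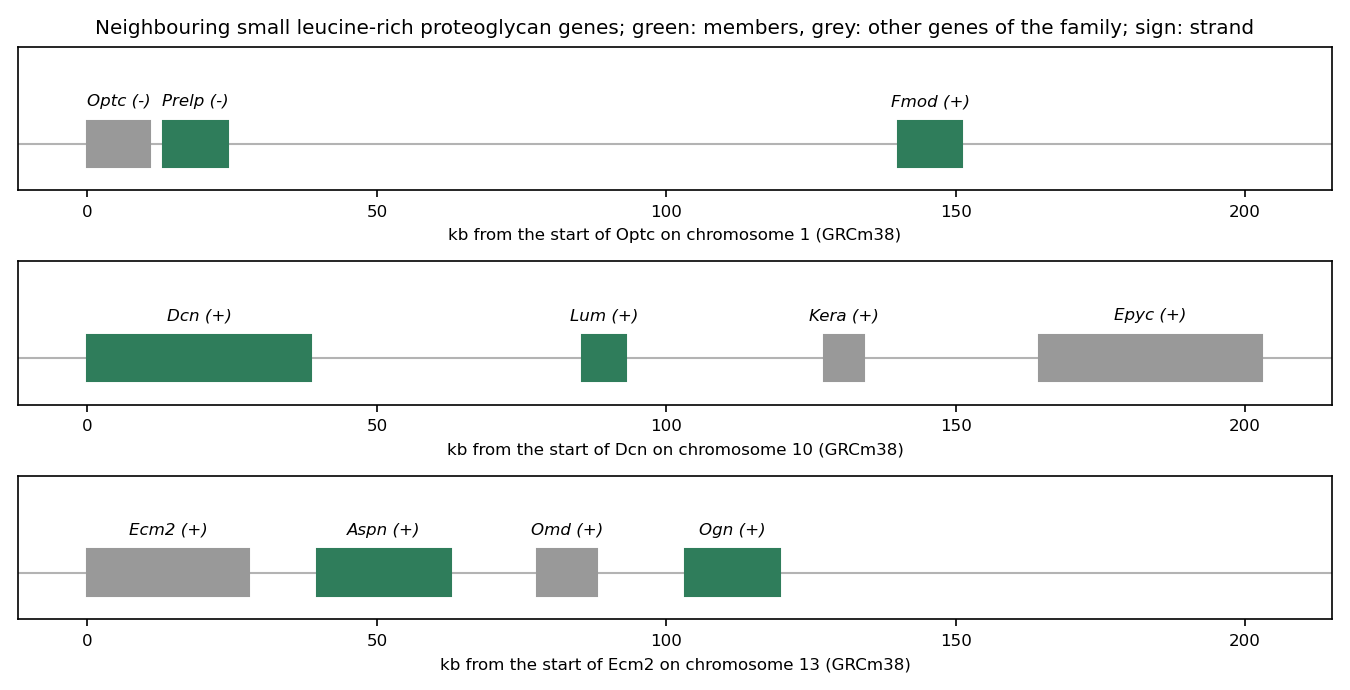
Small leucine-rich proteoglycan genes that lie next to each other on 3 chromosomes, drawn to scale in kb. Green marks the genes described here and grey marks others of the family, with the strand as a sign.

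Promoter sequences were found for 7 of the 10 genes, 9 sequences in all, and for Dcn, Lum and Fn1 they are missing. They come from RefSeq (GRCm38.p6), and each holds 300 bases around a gene's start. The 4 printed are those of Bgn and Aspn, whose levels ran most alike, of Ogn, a neighbour of Aspn with a site of its own in Cluster 15, and of Postn at its second start. All 4 are on the plus strand, at chrX:73483351-73483650 (Bgn), chr13:49544193-49544492 (Aspn), chr13:49607765-49608064 (Ogn) and chr3:54360857-54361156 (Postn). Capitals mark matches, on either strand, to TATAAA (a core promoter box), TGACTCA (an AP-1 site), GGAATG (a TEAD site) or ACAAAG (a SOX core), which 13.6%, 5.20%, 14.7% and 18.7% of 32851 promoters of this length hold.
Bgn: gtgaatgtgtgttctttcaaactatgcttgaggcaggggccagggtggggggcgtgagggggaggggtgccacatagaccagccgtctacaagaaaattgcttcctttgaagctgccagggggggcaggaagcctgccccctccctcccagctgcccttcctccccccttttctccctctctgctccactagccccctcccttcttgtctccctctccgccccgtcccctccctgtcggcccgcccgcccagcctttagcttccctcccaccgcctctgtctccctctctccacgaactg
Aspn: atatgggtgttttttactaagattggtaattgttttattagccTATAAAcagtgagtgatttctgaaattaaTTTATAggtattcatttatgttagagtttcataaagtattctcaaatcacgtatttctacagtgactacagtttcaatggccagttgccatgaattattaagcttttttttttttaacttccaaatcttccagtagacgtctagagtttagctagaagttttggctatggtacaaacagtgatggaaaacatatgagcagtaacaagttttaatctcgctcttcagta
Ogn: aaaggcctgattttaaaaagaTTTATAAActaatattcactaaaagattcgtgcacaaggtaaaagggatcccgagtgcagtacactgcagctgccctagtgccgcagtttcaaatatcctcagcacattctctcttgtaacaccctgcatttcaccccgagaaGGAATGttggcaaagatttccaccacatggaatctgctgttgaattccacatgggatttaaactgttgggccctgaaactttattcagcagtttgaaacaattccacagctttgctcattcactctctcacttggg
Postn: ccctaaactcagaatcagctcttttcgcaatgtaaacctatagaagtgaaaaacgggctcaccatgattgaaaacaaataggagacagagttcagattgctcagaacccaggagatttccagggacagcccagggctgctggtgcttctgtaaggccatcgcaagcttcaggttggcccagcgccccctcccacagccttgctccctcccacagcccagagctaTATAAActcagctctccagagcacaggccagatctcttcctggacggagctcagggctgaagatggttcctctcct

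In the Postn sequence TATAAA lies 26 bases before the start. In the Aspn sequence TATAAA lies 207 bases and TTTATA, its reverse, 178 bases before the start. The Ogn sequence has TTTATA and TATAAA, which overlap, 229 and 227 bases before the start, and GGAATG 86 bases before it. The Bgn sequence, the Prelp and Fmod sequences, both of Fbln1 and the first of Postn hold 0 matches. The share of G and C is 63.7% for Bgn, 31.0% for Aspn, 42.3% for Ogn and 53.0% for Postn, beside a median of 52.7% over all promoters.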

How the data were processed

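The authors processed the libraries, by their processing notes, with Cell Ranger, R 4.1.2 and Seurat on GRCm38 (mm10), and deposited the raw count of each gene in each cell, with the percent of mitochondrial UMIs in each cell (below 25.0). Counts equal those of the deposited cell table in 18203 of 18203 cells. Clusters are the authors' own. UMIs were summed per mouse and class, for mice with at least 10 cells of the class (at least 50 cells for whole mice), and tested in R 4.3.3 with edgeR 4.0.16 (TMM, filterByExpr, quasi-likelihood, group means over all conditions), with Benjamini-Hochberg adjustment over all genes tested and a threshold of 0.05. The SE printed with an edgeR log2 difference was worked back from the test, as the size of the difference divided by the square root of its quasi-likelihood F statistic. DESeq2 1.42.0 was the other tool. Shares were compared by exact permutation over mice. Python 3.11.15 served for levels (pandas 2.3.3, scipy 1.17.1 and numpy 2.4.6) and figures (matplotlib 3.10.9). Positions are those of GENCODE for GRCm38.

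The batch equals the replicate number in 16 of 16 mice. Deviations from the group means, correlated between conditions by replicate number, had a median r of 0.128 over 21 pairs of conditions (−0.251 to 0.377, 11 over 0.1), and the replicate block was kept as an alternative. The others were DESeq2, no filter on low counts, at least 5 or 30 cells, the conditions of the cell names, cells thinned to 1000 UMIs, the animal number series (shown by the numbers in the sample titles) each mouse left out, for shares the share of UMIs, and, chosen after the data were seen, the 6 libraries left out.

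Named beyond the 10 genes are genes of fixed lists that were called, or otherwise the 2 most abundant, and for each of the 10 the 3 genes with the highest correlation of log2(CPM + 50) among genes with at least 200 UMIs. Neighbours on the chromosome were named by position. Single marker genes, and Fn1 in Cluster 12 and Postn in Cluster 10, were named after their values were seen. The genes and lists were chosen with earlier results of these data known. Free RNA was not removed, and no doublet caller was run, so doublets among the deposited cells are not excluded where a gene is read in a second cell type or genes are counted together in a cell.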

Additional observations from a re-analysis of the deposited data

Results flagged for a closer look

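Among 38 groups of mice that were looked at, 4 had a mouse far from its group, and chance alone gives about 1 in 20. All 4 are levels over all cells of a mouse. At 7 d, cKO replicate 2 stood at 206 CPM for Ogn, where the other 3 mice lay between 3.23 and 32.3, and at 44.7 CPM for Fbln1, where they lay between 6.26 and 10.5. It is also the mouse with the most fibroblasts. Without injury, WT replicate 1 stood at 0.325 CPM for Lum, where the others lay between 4.58 and 5.17, and cKO replicate 1, the library with the fewest cells in use (208), stood at 27.1 CPM for Prelp, where the others lay between 11.3 and 12.4. The causes were not tested.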

How the results depend on the processing

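Over the 14 comparisons, the number of the 10 genes called kept its value in 314 of 320 alternative settings, and in 10 comparisons under each setting run. With no filter on low counts 5 genes were called over all cells at 7 d (Dcn, Lum, Bgn, Ogn and Aspn) and 1 at 14 d (Postn), where 711 and 613 of 41193 genes were called in place of 0. In fibroblasts, late against early, leaving out single mice gave 0 to 1 calls, the 1 being Aspn without WT 1 d replicate 1. In microglia after injury the count was 0 in place of 1 with the conditions of the cell names and with cells thinned to 1000 UMIs, which leaves 3604 genes tested, and 0 to 1 with single mice left out, 0 without WT 1 d replicate 1. The cause was not tested.

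Of the shares, the difference between genotypes for fibroblasts reversed to −0.196 points with the conditions of the cell names, and ran from −0.382 (without cKO 7 d replicate 2) to 0.703 with single mice left out, reversing also to −0.170 and −0.159 without WT 14 d replicate 2 and WT 7 d replicate 2. As a share of UMIs it was 1.19 points. The difference for pericytes after injury reversed to −0.141 with the conditions of the cell names. No share passed the threshold in any setting.

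Fibroblasts were the cluster of highest median for 6 of the 10 genes, and for 6 to 9 in other settings. With the replicate block (paired by replicate number), 0 of the 10 genes were called in 13 comparisons, and Fn1 was called in microglia after injury. Over all genes that fit called 6, 22 and 17 at 1 d, 7 d and 14 d, 14 in microglia after injury, 1 in fibroblasts late against early, 1 in astrocytes between genotypes and 0 in the others. At least 30 cells was not run for fibroblasts, in both comparisons, for want of mice.

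Depth limits what can be seen. Fibroblasts of 1 d replicate 1 hold 5446 and 7330 UMIs, so low levels were not measured there. Fibroblast fits have 2 residual degrees of freedom, and WT has 1 mouse per time. Uninjured mice have 1 to 10 fibroblasts each, so injury was not tested within fibroblasts. Library, batch and the conflicting cell names all involve replicate 2, and these RNA counts do not measure the matrix laid down.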

Other observations

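Mice with fewer than 10 fibroblasts were left out of the fibroblast comparisons, except where at least 5 cells were asked for. Dcn in these few cells stood at 1091 CPM in WT uninjured replicate 1 (2 cells), 10163 CPM in cKO uninjured replicate 2 (6 cells), 11655 CPM in cKO uninjured replicate 1 (1 cell), 6260 CPM in WT 7 d replicate 2 (3 cells), 308 CPM in WT 14 d replicate 2 (8 cells) and 2982 CPM in cKO 7 d replicate 1 (7 cells). This range, 308 to 11655 CPM, overlaps that of the 9 mice tested.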
